A study of Bos indicus with 55 samples.

Results

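Endometrium, the lining of the uterus, was compared between cattle carrying a female (XX) conceptus made by nuclear transfer and cattle carrying an XX conceptus conceived in vivo. The members are the 5 nuclear transfer and 3 in vivo endometrium libraries whose titles name a female conceptus, 8 of the 55 libraries of the series and 8 of its 27 endometrium libraries. No measured value was used to choose them. All 8 recipients were on day 16 of pregnancy, and the tissue was intercaruncular endometrium, the gland-rich lining between the caruncles at which the placenta later attaches. In 7 animals it came from the uterine horn on the side of the conceptus, and in nuclear transfer replicate 3 it came from the opposite (contralateral) horn. The in vivo conceptuses followed artificial insemination. The donor cells of nuclear transfer are not named in the labels. All samples are labelled Bos indicus. The design text gives Bos taurus indicus for the cows and Bos taurus taurus for their conceptuses, and the endometrium is the cow's own tissue. Another 7 endometrium libraries with XX conceptuses made by in vitro fertilisation (IVF) entered the fit to share its estimate of the spread. Each library is from a different animal.

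Nuclear transfer clones an animal by placing a donor cell's nucleus in an egg emptied of its own. Before implantation a ruminant conceptus elongates in the uterine lumen and its trophoblast releases interferon tau. This interferon blocks the prostaglandin pulses that would end the corpus luteum and induces interferon-stimulated genes in the endometrium, whose glands in turn feed the conceptus. The question, from the title of the series, was how the endometrium acts as a sensor of its conceptus. Which of these genes differed cannot be read here by name. The endometrium table lists 27619 genes, 27607 of them by Ensembl identifier and 12 by symbol, and the files and the gene table used here do not pair the identifiers with names. Of 703 symbols in 34 lists, from interferon-stimulated genes to markers of epithelium, stroma, blood vessel, immune cells and trophoblast, 0 were in the table. The tissue label was therefore not checked against markers, and identifiers are given without a role.

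The 8 libraries were of like depth, 6281393 to 6909193 counts in the nuclear transfer group and 6583014 to 6734771 in the in vivo group. Between 18870 and 19328 genes had a count in each nuclear transfer library and between 19213 and 19279 in each in vivo library. The 10 most abundant genes took 10.2 to 12.1% of the counts in the nuclear transfer libraries and 10.8 to 12.2% in the in vivo libraries. No pair of libraries held identical values.

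No gene of the 15487 tested passed the threshold between nuclear transfer and in vivo endometrium with XX conceptuses: edgeR called 0 genes (0%), with a smallest adjusted p of 0.176. Unadjusted p lay under 0.05 for 726 genes (4.69%), 362 of them higher (2.34%) and 364 lower (2.35%) under nuclear transfer, where a uniform spread of p would give 774.4. By other tools, DESeq2 called 4 genes, all lower under nuclear transfer, and limma voom called 0, with 792 and 1021 genes at an unadjusted p under 0.05. Across all genes the median log2 fold was 0.01 and the median of its absolute value 0.14. A log2 fold beyond 1 in size, that is 2-fold, was fitted for 359 genes, 170 higher and 189 lower. Of these, 54 higher and 85 lower genes had an unadjusted p under 0.05.

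How far these data limit a difference depended on the level of the gene. For 11721 genes (75.7%) the 95% interval of the fold, taken gene by gene, excluded a 2-fold difference in either direction. Among the 995 genes with a mean level under 1 log2 CPM, where CPM is a gene's counts divided by the TMM-scaled library size in units of 1 M counts, 58 (5.83%) had such an interval. The share was 59.1% of the 5285 genes at 1 to 4 log2 CPM, 93.1% of the 7604 genes at 4 to 7 and 91.3% of the 1603 genes above 7. The median half-width of the interval was 1.24 on the log2 scale in the lowest class and 0.28 in the highest. A moderate change in a weakly expressed gene was thus not detectable at this depth with 5 and 3 animals, while a 2-fold change in most well-expressed genes lay outside the interval.

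**Figure D1:**
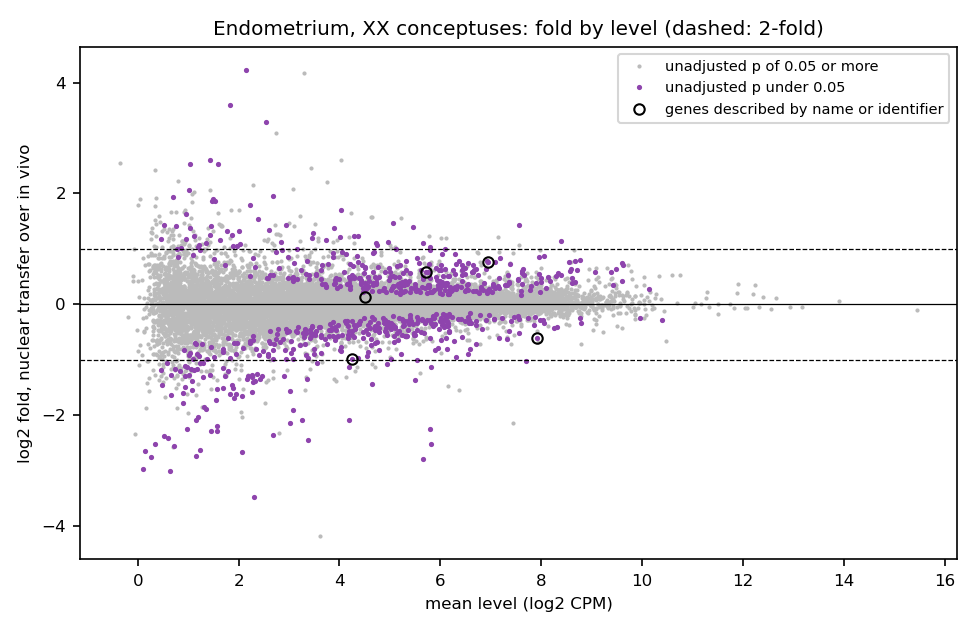
Log2 fold of each tested gene (nuclear transfer over in vivo, XX conceptuses) against its mean level in log2 CPM. Purple points are the 726 genes with an unadjusted p under 0.05, dashed lines mark 2-fold, and circles mark the 5 genes described by identifier or symbol; the scatter of folds widens toward low levels and 0 genes passed the adjusted threshold.

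The gene with the smallest p, ENSBTAG00000020361, was lower in every nuclear transfer animal, without passing the test. It had 14.2, 18.4, 13.5, 14.6 and 12.6 CPM in nuclear transfer replicates 1 to 5, against 30.8, 26.0 and 30.6 CPM in in vivo replicates 1 to 3. The 2 sets of values did not overlap, with all nuclear transfer libraries on the low side. Its mean was 14.7 ± 2.21 CPM under nuclear transfer (SD, n = 5) and 29.1 ± 2.69 CPM in vivo (SD, n = 3), giving a log2 fold of -0.99 (SE 0.16, 95% interval -1.32 to -0.66) with an edgeR adjusted p of 0.176. With another tool, scaling, filter, sample set or covariate the adjusted p ran from 4.51e-05, by DESeq2, to 1, and with 1 library left out from 0.0208 to 0.773. Under IVF conceptuses of the same sex it ran from 11.6 to 19.99 CPM, with a median of 17.7. With all 27 libraries scaled together the 3 in vivo XX libraries held 25.9 to 30.4 CPM. The other 24 held 8.83 to 21.5 CPM, without overlap. The gene was picked for a difference from these same in vivo animals, so this is a description alone.

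ENSBTAG00000021577 had 227.1, 214.0, 222.9, 194.2 and 219.8 CPM in the nuclear transfer libraries, against 363.7, 342.8 and 276.8 CPM in the in vivo libraries. The nuclear transfer values lay close together, and none reached the lowest in vivo value. This is a log2 fold of -0.60 (SE 0.12), with an adjusted p of 0.590 by edgeR and 0.0111 by DESeq2 (0.0111 to 1 over the tools and settings and 0.141 to 1 with 1 library left out). The IVF libraries with XX conceptuses spanned 193.1 to 281.9 CPM (median 220.9), and 3 of the 24 libraries outside the in vivo XX group exceeded its lowest value. The remaining 2 genes called by DESeq2, known by identifier alone, averaged 2.62 ± 1.81 and 0.556 ± 0.235 CPM under nuclear transfer and 13.6 ± 4.15 and 3.04 ± 0.288 CPM in vivo (SD, n = 5 and 3). Their edgeR log2 folds were -2.36 and -2.42, with adjusted p of 0.635 and 0.455 by edgeR.

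Of the genes higher under nuclear transfer, ENSBTAG00000048432 had 60.3, 58.6, 59.6, 50.6 and 72.8 CPM, against 46.5, 39.4 and 35.8 CPM in vivo. The groups did not overlap. It was higher by 0.57 on the log2 scale (SE 0.14), with an edgeR adjusted p of 0.801. IVF libraries held 47.2 to 67.0 CPM with a median of 48.5. ENSBTAG00000021273 had 135.0, 98.8, 135.2, 159.2 and 135.9 CPM in nuclear transfer libraries, against 75.0, 80.8 and 79.3 CPM in in vivo libraries. The in vivo values lay within a narrow band below all 5 nuclear transfer values, and the log2 fold of 0.76 (SE 0.18) had an edgeR adjusted p of 0.801. IVF libraries held 93.2 to 188.4 CPM with a median of 130.4. By DESeq2 each of the 2 genes had an adjusted p of 0.112. Under XY conceptuses, in a fit over all 27 libraries, the log2 fold of ENSBTAG00000021273 was -0.54 (SE 0.27), the opposite direction. That of ENSBTAG00000048432 was 0.44 (SE 0.14), the same direction as under XX.

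TBL1X, which helps exchange corepressors for coactivators at nuclear receptors, was the only gene with a symbol among those tested. It had 22.4, 23.5, 22.1, 22.7 and 22.7 CPM under nuclear transfer, against 20.03, 21.99 and 19.91 CPM in vivo. These ranges nearly touch, and the log2 fold of 0.14 (SE 0.10) had a 95% interval of -0.07 to 0.34 and an edgeR adjusted p of 0.9996.

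**Figure D2:**
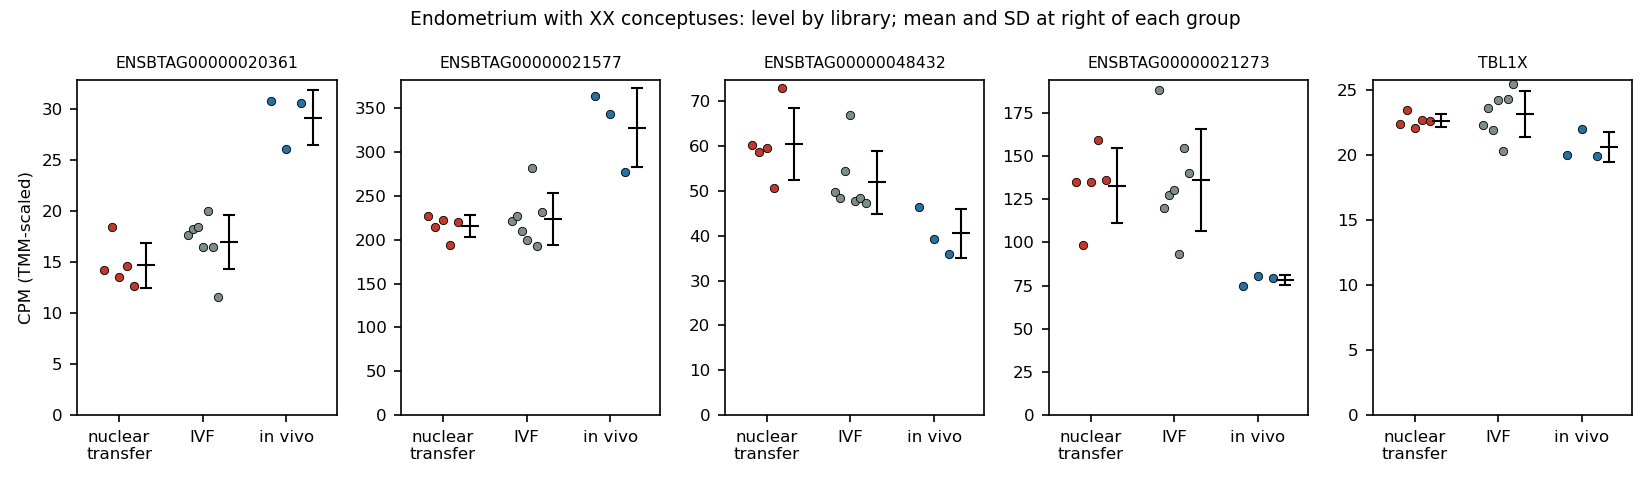
TMM-scaled CPM of 5 genes in each endometrium library with an XX conceptus, by conceptus type, with points for animals and a bar for mean and SD. The in vivo animals lie above all nuclear transfer animals for the first 2 identifiers and below them for the next 2. For ENSBTAG00000021577, 1 IVF animal (281.9 CPM) lies above the lowest in vivo animal (276.8 CPM). The IVF mean is nearer to the nuclear transfer mean than to the in vivo mean for all 5 genes. The identifiers were picked for a difference from these in vivo animals, so this is a description alone.

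The 20 genes with the smallest p and a mean of at least 1 log2 CPM comprised 13 with lower and 7 with higher levels under nuclear transfer, with log2 folds of -2.67 to -0.60 and of 0.57 to 0.985. In 18 of them the nuclear transfer and in vivo ranges did not overlap. Over all tested genes 290 (1.87%) had every nuclear transfer library above every in vivo library and 287 (1.85%) every one below, together 577 genes (3.73%), and the 20 were picked by p, which itself favours groups without overlap. In 19 of the 20 the mean of the 7 IVF libraries lay nearer to the nuclear transfer mean than to the in vivo mean on a log scale. Because the genes were picked for a difference from the same in vivo animals, this count is a description alone. In bulk tissue, fewer cells that express a gene and less RNA per cell cannot be told apart.

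The first principal component held 22.6% of the variance and its ends were both in vivo libraries, replicate 1 at 48.6 and replicate 2 at -34.9, with the 5 nuclear transfer libraries between them. On the second component, with 19.1% of the variance, nuclear transfer replicates 4, 5, 1 and 2 stood at 40.5, 25.6, 8.59 and 6.03. The contralateral nuclear transfer replicate 3 stood at -28.7, below in vivo replicates 1, 2 and 3 at -21.7, -20.4 and -9.91. Pairs within a group and pairs across groups covered overlapping ranges of likeness. The median absolute log2 difference per gene was 0.25 over the 10 nuclear transfer pairs (0.23 to 0.27), 0.25 over the 3 in vivo pairs (0.23 to 0.28) and 0.25 over the 15 mixed pairs (0.22 to 0.30). Between 1139 and 1566 genes differed over 2-fold within nuclear transfer pairs, 1107 to 1671 within in vivo pairs and 1132 to 1742 in mixed pairs.

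**Figure D3:**
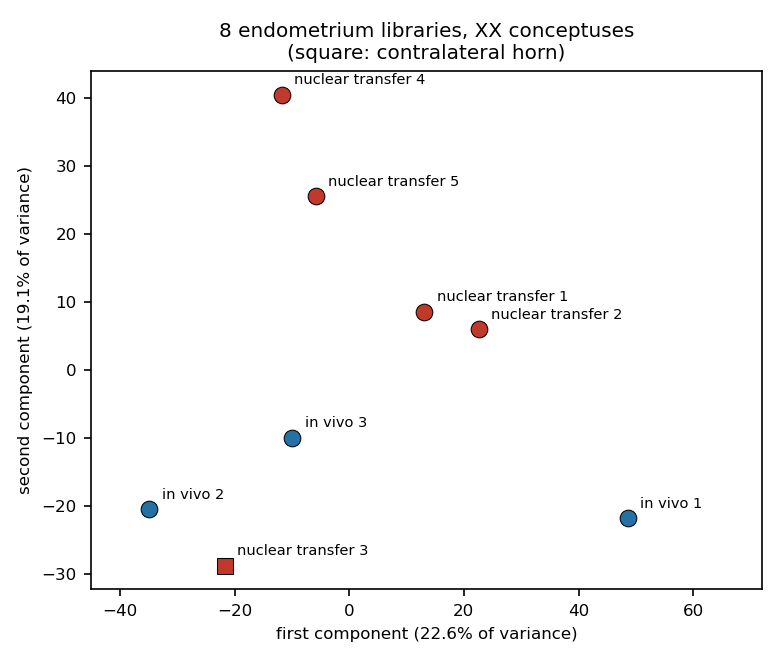
First and second principal components of log2 CPM over the tested genes for the 8 libraries, with the share of variance on each axis, red for nuclear transfer and blue for in vivo. In vivo replicates 1 and 2 mark both ends of the first axis, and the contralateral nuclear transfer replicate 3 (square) lies with the in vivo libraries on the second.

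Within the nuclear transfer group the contralateral library stood apart for the most genes. Of 14492 genes with a mean of at least 1 log2 CPM, 226 (1.56%) had replicate 3 as a single value far from the other 4 by Dixon's criterion. Replicates 1, 2, 4 and 5 stood apart in this way for 129, 138, 161 and 153 genes (0.89, 0.952, 1.11 and 1.06%). Chance puts 1 library apart in about 1 of 20 groups, counting any of the 5 libraries, so that figure is not the chance level of a single library. Whether replicate 3 exceeded chance was not tested. Horn and animal cannot be told apart for a single library. Without replicate 3 edgeR again called 0 genes, with 870 at an unadjusted p under 0.05. The median within-group SD of log2 CPM per gene was 0.25 for nuclear transfer (n = 5), 0.27 for IVF (n = 7) and 0.22 for in vivo (n = 3). A median of sample SDs runs lower with fewer animals, so these values do not rank the spread of the groups.

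Whether the difference between nuclear transfer and in vivo depended on conceptus sex was tested over all 27 libraries. These include 6 nuclear transfer and 3 in vivo libraries with male (XY) conceptuses. Sample codes of the in vivo libraries start with A, B or C for XX and with F, G or H for XY. Conceptus sex and code position thus cannot be told apart in vivo, and no code term was fitted here. By edgeR 39 of 15911 genes (0.245%) differed between the sexes in their fold, 25 (0.157%) with a higher and 14 (0.088%) with a lower log2 fold under XX than under XY. In 38 of the 39 the fold had opposite signs in the 2 sexes, and over all 15911 genes 42.1% shared their sign. The XY fold was the larger in all 39, with a median size of 1.22 on the log2 scale against 0.46 under XX. Over all 15911 genes these median sizes were 0.238 under XY and 0.141 under XX. Picking genes by the XX minus XY difference itself favours opposite signs and a large fold in the sex with wider folds. In the same fit 0 of the 39 passed the threshold within XX alone and 39 did so within XY alone. Over all 15911 genes of that fit, edgeR called 0 (0%) within XX, with 556 at an unadjusted p under 0.05, and 565 (3.55%) within XY. The count within XY depended on the fit. With the XY libraries fitted alone, edgeR called 56 of 15296 genes, with 2422 at an unadjusted p under 0.05. Among the 6 group means, in vivo XY was the highest or the lowest in 39 genes, in vivo XX was at the opposite end in 25, and nuclear transfer XX was at an end in 0. Over all 15911 genes, in vivo XY was at an end in 62.4%, both in vivo groups were at opposite ends in 23.6% and nuclear transfer XX was at an end in 21.8%. The 39 were picked for a difference that uses both in vivo groups of 3, which itself favours in vivo means at the ends, so these counts are a description alone.

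The gene with the smallest p of these had 142.4, 124.9, 139.8, 137.3 and 147.7 CPM in nuclear transfer XX libraries, against 154.5, 300.2 and 188.9 CPM in in vivo XX libraries. Under XY conceptuses it ran from 130.7 to 196.7 CPM (median 145.7) under nuclear transfer, against 38.1, 62.5 and 77.3 CPM in vivo. The nuclear transfer ranges of the 2 sexes overlapped. The in vivo libraries lay above all nuclear transfer libraries of the same sex for XX and below all of them for XY. The log2 fold was -0.63 (SE 0.20) under XX and 1.38 (SE 0.22) under XY, a difference of -2.01 (SE 0.295, adjusted p = 0.00639 by edgeR; 2.67e-07 to 0.218 over tools and settings, 0.00164 to 0.0481 with 1 library left out). The gene with the smallest p among positive differences had 77.3, 76.5, 125.6, 270.1 and 92.3 CPM in nuclear transfer XX libraries, against 54.2, 75.4 and 108.9 CPM in in vivo XX libraries, with replicate 4 of nuclear transfer far above the rest. Under XY conceptuses it ran from 43.5 to 121.7 CPM under nuclear transfer, against 363.3 to 599.6 CPM in vivo, and the difference between sexes was 3.30 (SE 0.54, adjusted p = 0.0166 by edgeR; 2.02e-06 to 0.218 over tools and settings, 0.00366 to 0.0824 with 1 library left out). The files do not pair either identifier with a name, and both were chosen after their values were seen.

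Across all 15911 genes the XX and XY folds shared their sign in 42.1%, and their Spearman correlation was -0.20. Both folds share no library, but they come from 1 fit, and genes are not independent replicates. Folds were wider under XY, with an SD over genes of 0.59 against 0.39 under XX. In vivo XY replicate 1, the deepest endometrium library at 9815246 counts, stood apart on the second principal component of all 27 libraries, at -90.9 where the other 26 lay between -27.7 and 22.3. Leaving it out gave a correlation of -0.10 and a count of 4 genes in place of 39. Leaving out contralateral in vivo XY replicate 2 gave 573 genes. The count was 12, 1 and 6 without in vivo XX replicates 1, 2 and 3, and 25, 10 and 25 without nuclear transfer XX replicates 1, 2 and 5. It was 68, 9, 7, 15 and 12 without nuclear transfer XY replicates 1, 3, 4, 5 and 6, and 16 and 23 without IVF XX replicates 1 and 7. The remaining 12 fits with 1 library left out gave 28 to 55 genes. DESeq2 called 316 genes and limma voom 47.

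**Figure D4:**
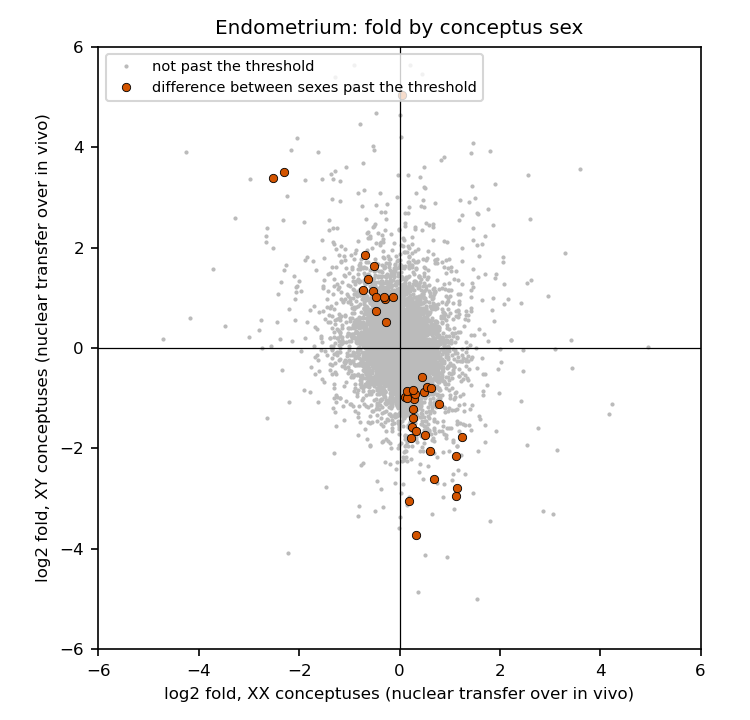
Log2 fold of nuclear transfer over in vivo under XX conceptuses (horizontal) and under XY conceptuses (vertical) for the genes of the fit over all libraries; 3 genes lie outside the axes. The 39 genes whose fold differed between the sexes (orange) lie, with 1 exception, in the quadrants of opposite sign, and farther from 0 along the XY axis. They were picked for that difference, which itself favours such positions.

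Extracellular vesicles (EVs), membrane particles that the conceptus released over 6 h of culture, were sequenced for small RNA from the same 8 pregnancies, tied to the endometrium by the animal number in the labels. Here their libraries carry the replicate number of the endometrium. Of 198 miRNAs tested, edgeR called 0 (0%), with 12 (6.06%) at an unadjusted p under 0.05, and DESeq2 and limma voom called 0 each, with 18 and 16 at an unadjusted p under 0.05. The smallest p belonged to miR-449a, which shares its seed with the miR-34 family and is best known from multiciliated epithelia of mouse and human. It had 155, 90.8, 109, 84.0 and 175 CPM in EVs of nuclear transfer conceptuses 1 to 5, against 0, 0 and 14.1 CPM in EVs of in vivo conceptuses 1 to 3. Every nuclear transfer library had a count, and 1 of 3 in vivo libraries did. The pooled counts were 93 of 952648 for nuclear transfer, 9.76 per 100000 (95% exact Poisson interval 7.88 to 12), and 2 of 237930 for in vivo, 0.841 per 100000 (0.102 to 3.04). Their ratio was 11.6 (95% interval 3.13 to 97.3), which covers counting error alone and not the spread between animals. Its in vivo side rests on the 2 counts of replicate 3. On its nuclear transfer side, replicate 4 held 45 of the 93 counts and 603579 of the 952648. The fitted log2 fold of 4.21 (SE 1.21, adjusted p = 0.559 by edgeR) depends on the prior count of the fit, and was 7.18 without in vivo replicate 3. IVF libraries ran from 0 to 117 CPM, with counts in 5 of 7. Of the other miR-34 and miR-449 members, only miR-34c was tested, with a log2 fold of 0.42 (SE 0.75, adjusted p = 0.892 by edgeR). The untested miR-34a, miR-34b, miR-449b and miR-449c had 15, 26, 2 and 2 pooled counts in nuclear transfer EVs, against 11, 0, 0 and 0 in vivo.

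The next 3 in order of p had lower means in nuclear transfer EVs. miR-11980, an entry catalogued in cattle, had 129, 99.9, 245, 72.8 and 9.74 CPM in nuclear transfer EVs, against 743, 263 and 415 CPM in in vivo EVs, without overlap. Over all 198 miRNAs, 2 (1.01%) showed no overlap between the groups, and they were miR-449a, the 1 above (0.505%), and miR-11980, the 1 below (0.505%). miR-411a, of the imprinted DLK1-DIO3 region, had 77.6, 18.2, 13.6, 26.1 and 29.2 CPM in nuclear transfer EVs, against 354, 80.1 and 70.4 CPM in in vivo EVs, so the groups overlapped at replicate 1 of nuclear transfer. miR-143, typical of smooth muscle and mesenchymal cells, averaged 2482 ± 1216 CPM in nuclear transfer EVs and 5561 ± 2194 CPM in in vivo EVs (SD, n = 5 and 3). miR-30c, of the miR-30 family, was the 1 of these 4 with a higher mean in nuclear transfer EVs, at 1641 ± 1023 CPM, against 619 ± 146.8 CPM in in vivo EVs. Their log2 folds were -2.11 (SE 0.79), -2.35 (SE 0.90), -1.16 (SE 0.49) and 1.41 (SE 0.60), all with an adjusted p of 0.689 by edgeR. Without in vivo replicate 1 the log2 fold of miR-411a was -1.26, and without nuclear transfer replicate 4, the deepest EV library, that of miR-30c was 0.69. EV libraries were shallow and uneven, with 69424 to 603579 counts for nuclear transfer and 49179 to 100693 for in vivo.

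**Figure D5:**
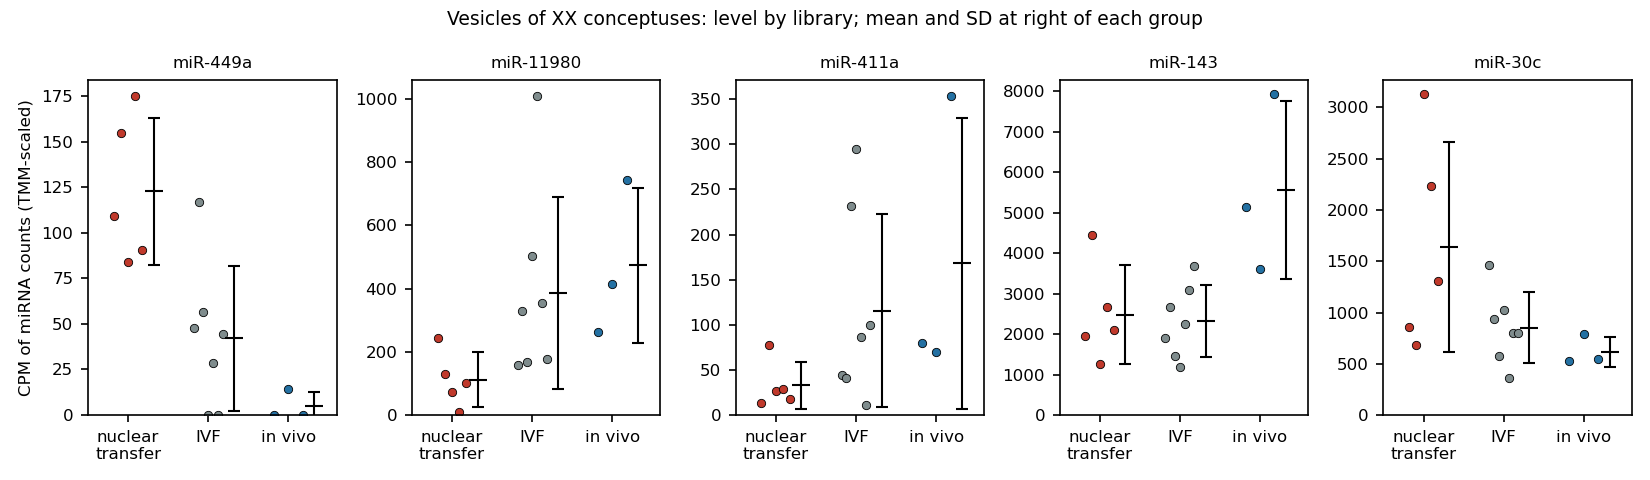
TMM-scaled CPM of the 5 miRNAs with the smallest p in EVs of XX conceptuses, by conceptus type, with a point for each library and a bar for mean and SD. For miR-449a all 5 nuclear transfer libraries lie above the 3 in vivo libraries, of which 2 are at 0, and for miR-11980 all 5 lie below.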

How the data were processed

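Poly(A) RNA of endometrium and small RNA of EVs were sequenced. Per the labels' protocols, endometrium libraries were strand-marked with dUTP. The submitters' processing notes name ARS-UCD1.2 as build and list STAR, Bowtie, featureCounts, cutadapt and DESeq2, without versions or roles. Whether counting used strand is not given in the sources used here, so overlapping and antisense genes may share counts. The authors deposited endometrium values as estimated counts per gene (85.2% of values above 0 whole within 0.004), which were rounded to whole numbers for the tests, and EV values as whole counts per miRNA. Neither was normalized.

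The test was the quasi-likelihood F test of edgeR 4.0.16, run in R 4.3.3 (TMM, filterByExpr with minimum count 10 and total 15, two-sided, Benjamini-Hochberg, threshold 0.05). The fit held the 15 libraries with XX conceptuses in 3 type means. The sex difference used 27 libraries and 6 means. DESeq2 1.42.0, limma 3.58.1 voom, other scalings, filters, sample sets and left-out libraries were alternatives. Sample code terms were fitted for the XX endometrium comparison alone. SE came from the fold and its F statistic. Log2 CPM used a prior count of 2. Scripts were tested on simulated data. P-values set a difference between groups against the spread between animals, as estimated in the fit with information shared across genes.

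The rule named the genes with the smallest p among those with a mean of at least 1 log2 CPM, at most 2 identifiers in each direction, and the 5 EV miRNAs with the smallest p. Members, lists and tests were chosen with earlier results of these data known. Of the 34 gene lists, 0 had a measured member, so no list is described. Mature miRNA sequences were not used here.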

Additional observations from a re-analysis of the deposited data

Results flagged for a closer look

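Among 30 groups of 4 to 10 libraries examined for a single library far from the others, 7 showed one, where chance gives about 1 in 20. In endometrium with IVF XX conceptuses these were ENSBTAG00000020361 at 11.6 CPM in replicate 7, ENSBTAG00000021577 at 281.9 CPM in replicate 5 and ENSBTAG00000048432 at 67.0 CPM in replicate 4. In nuclear transfer XX endometrium, replicate 4 stood at 270.1 CPM for the gene with the smallest p among positive differences between the sexes. In EVs, miR-11980 stood at 1010 CPM in the IVF XX conceptus whose endometrium is replicate 4, and miR-411a at 77.6 CPM in the nuclear transfer conceptus whose endometrium is replicate 1. The EV library of nuclear transfer conceptus 4 was the deepest of its group, at 603579 counts, or 604 k.

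By an edgeR test of that difference, the fold of nuclear transfer over in vivo differed between XX and XY conceptuses in 39 of 15911 endometrial genes (0.245%). The count depended on single libraries, with 4 genes without in vivo XY replicate 1 and 1 without in vivo XX replicate 2. For the 2 described above the difference, XX minus XY, was -2.01 and 3.30 on the log2 scale.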

How the results depend on the processing

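For nuclear transfer against in vivo under XX conceptuses, the count of 0 genes was the same in 11 of 12 alternatives, including the 8 libraries alone (760 genes at an unadjusted p under 0.05) and all 27 libraries (556). DESeq2 called 4. Leaving out 1 library gave 0 to 1, the 1 being ENSBTAG00000020361 without IVF XX replicate 7. The number of genes whose interval excluded a 2-fold difference ran from 10560 to 11977, out of unlike numbers of tested genes. It was 10560 of 14797 with a replicate block, 11977 of 15487 by limma voom and 11764 of 22607 with no low count filter. ENSBTAG00000020361, ENSBTAG00000021577, ENSBTAG00000048432, ENSBTAG00000021273 and TBL1X kept their direction in all 12 alternatives and 15 fits with 1 library left out. The identifiers were picked by p from these data, and none of these genes had overlapping ranges in the main fit. Refits of the same counts could thus hardly reverse a direction, and this is a description alone. The median fold of all genes was 0.01 with TMM, 0.01 with DESeq2-style size factors and -0.02 with upper-quartile scaling.

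The count of 39 genes whose fold differed between the sexes became 316 by DESeq2, 254 without the 3 contralateral libraries and 1 without these and in vivo XY replicate 1, an alternative added after seeing the data. It was 1 to 573 with 1 library left out. Replicates 1 to 3 of each nuclear transfer and in vivo group, with all IVF libraries left out, gave 15378 tested genes. There the count was 0 with the replicate number as a block and 0 without, the second fit also added after seeing the data. For the XX comparison the block gave 0 genes, and for EVs 0 miRNAs. Same-numbered nuclear transfer and in vivo XX libraries had correlations of 0.03, -0.15 and -0.00 in their deviations from the group means, and the labels do not pair them. EV counts of 0 were the same in 8 alternatives and 15 fits with 1 library left out. List medians under other scalings were not run, since 0 list members were measured. With 3 in vivo animals, low-level genes and EV miRNAs are limited most.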
